A study of Mus musculus with 77 samples.

Results

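The cAMP response element-binding (CREB) family and its coactivators were followed across the dopamine-depleted and levodopa-treated striatum of the mouse. The 10 genes considered were Creb1, Crem, Atf1, Atf2, Atf3, Atf4, Crtc1, Crtc2, Crtc3 and Crebbp, and every probe set (a group of short probes that reports a transcript) annotated to a single symbol among them was taken, whatever its level or change. This gave 30 of 45101 probe sets, for 9 of the 10 genes: 6 for Creb1, 5 for Atf2, 4 each for Crem and Crebbp, 3 each for Atf4 and Crtc1, 2 each for Crtc2 and Crtc3, and 1 for Atf3. The remaining gene, Atf1, was not measured because its probe set is annotated to a pseudogene as well. Values are RMA log2 values, and levels of different probe sets cannot be set against each other because probes differ in brightness.

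RNA bound to ribosomes was purified from direct-pathway spiny projection neurons (dSPN) of mice carrying Drd1::EGFP-L10a or indirect-pathway neurons (iSPN) of mice carrying Drd2::EGFP-L10a. In these lines a tagged ribosomal protein is driven by a dopamine receptor gene in a bacterial artificial chromosome, so that any other cell using that receptor gene is also captured. All animals were transgenic males of 9 to 14 weeks on the C57BL/6J background, and each of the 77 arrays came from the dorsal striatum of 1 mouse on the operated side. Mice with 6-OHDA injected into the medial forebrain bundle at 3.2 µg/µl, which kills dopamine neurons, then received daily saline (11 dSPN and 7 iSPN arrays), low-dose levodopa (12 and 8) or high-dose levodopa (11 and 8). The low regimen began with 1 mg/kg (days 1 to 3) and continued with 2 mg/kg (days 4 to 9), the high regimen with 3 and then 6 mg/kg, both with benserazide at 12 mg/kg, which blocks conversion of levodopa outside the brain. Mock-lesioned mice were injected with vehicle and then given saline (10 arrays in each line). Lesioned mice had been selected by their turning and limb use, and the high dose was one expected to bring on severe dyskinesia.

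As background, Creb1 is a constitutive activator that binds cAMP response elements and is switched on by phosphorylation, for which protein kinase A, calcium/calmodulin kinases and RSK kinases are known enzymes. Phosphorylated CREB recruits Crebbp (CBP), an acetyltransferase, while the Crtc proteins are held in the cytoplasm by salt-inducible kinases and enter the nucleus once calcineurin removes their phosphates. Crem encodes activators and, from an internal promoter that itself responds to cAMP, the short repressors called ICER, which close a negative feedback loop. Atf3 is an early-response and stress gene, Atf2 pairs with Jun proteins downstream of stress kinases, and Atf4 is controlled mainly at translation, through phosphorylation of eIF2 alpha. In the striatum, D1 receptors raise cAMP in dSPN and D2 receptors lower it in iSPN.

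Promoter sequences of the genes that moved in opposite directions in dSPN are shown because the core of the cAMP response element, TGACG or its reverse complement CGTCA, can be looked for in them. They cover 250 bases before and 50 bases after the RefSeq start site on GRCm38.p6, printed 5′ to 3′ on the gene's strand, with each core element in capitals.
Atf3 promoter, chr1:191183284-191183583, minus strand: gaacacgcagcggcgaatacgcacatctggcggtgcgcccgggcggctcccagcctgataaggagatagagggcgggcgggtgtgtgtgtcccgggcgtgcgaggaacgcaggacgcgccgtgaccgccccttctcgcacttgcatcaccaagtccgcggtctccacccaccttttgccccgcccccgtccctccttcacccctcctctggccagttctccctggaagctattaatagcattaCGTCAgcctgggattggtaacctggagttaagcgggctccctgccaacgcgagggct
Atf4 promoter, chr15:80254934-80255233, plus strand: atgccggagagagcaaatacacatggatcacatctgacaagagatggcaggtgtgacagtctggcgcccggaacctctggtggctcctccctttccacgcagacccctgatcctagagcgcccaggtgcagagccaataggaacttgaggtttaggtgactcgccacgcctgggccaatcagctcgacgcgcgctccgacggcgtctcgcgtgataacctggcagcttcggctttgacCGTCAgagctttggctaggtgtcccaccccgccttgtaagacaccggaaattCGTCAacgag
Crebbp promoter, chr16:4213355-4213654, minus strand: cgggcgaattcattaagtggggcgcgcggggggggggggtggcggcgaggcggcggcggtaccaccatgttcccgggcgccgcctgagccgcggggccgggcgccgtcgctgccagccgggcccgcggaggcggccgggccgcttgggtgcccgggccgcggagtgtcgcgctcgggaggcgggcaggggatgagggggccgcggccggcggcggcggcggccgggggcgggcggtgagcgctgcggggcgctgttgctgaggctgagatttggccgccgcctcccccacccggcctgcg
Atf3, which rose with levodopa, holds a core element that begins 7 bases before the start site. Atf4, which also rose, holds 2, beginning 12 bases before and 41 bases after the start site. Crebbp, which fell, holds none in this window. Of the 8 member promoters searched, 3 held the core element (the other one was Atf1, at 90 bases before the start site). Creb1, Atf2, Crtc1, Crtc3 and Crebbp had none. Crem and Crtc2, which also had probe sets called higher in dSPN, were not searched, so the raised genes are covered only in part. Whether the element goes with the direction of change was not tested. The core element occurs in 20.8% of 32851 mouse promoters of the same length, and the full palindrome TGACGTCA, present in 1.79% of them and overlapping the core on both strands, was in none of the 8. Such matches describe these letters only.

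The arrays had nearly the same distribution (medians from 4.31 to 4.42) and matched their lines. The 9 measured dSPN markers averaged 9.73 to 10.38 on dSPN arrays and 6.32 to 7.80 on iSPN arrays, and the 5 measured iSPN markers averaged 5.71 to 7.10 on dSPN arrays and 9.41 to 10.64 on iSPN arrays. In such bulk RNA, fewer cells of a type and less RNA per cell cannot be told apart. Array titles carry a number, and these fall into 7 separate stretches (1 to 4 for dSPN, 5 to 7 for iSPN) whose meaning the labels do not give. Line and stretch cannot be told apart, and drug groups are spread unevenly over the stretches, so values within stretches are given beside the main results.

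High-dose levodopa split the family in dSPN. Crem, Atf3 and Atf4 rose, with a small rise of Crtc2, while Creb1, its coactivator Crebbp and Crtc1 fell. Tests were limma moderated tests over all 45101 probe sets on all 77 arrays with Benjamini-Hochberg adjustment, called at an adjusted p below 0.05. Of 30 probe sets, 8 were called higher in high-dose than in saline-treated lesioned dSPN, from 4 genes, against 14.5% of all probe sets, and 11 were called lower, from 3 genes, against 13.9%. The shares were 26.7% and 36.7% of the member probe sets, and among the 27060 brighter probe sets, where 27 of the 30 lie, the shares called were 19.0% up and 22.3% down. Values of the groups did not overlap for 8 member probe sets, and the share without overlap among all probe sets was not counted. The median change over all 30 was -0.12, against 0.033 for all probe sets. Restricted to 1 stretch that held 9 high-dose and 6 saline arrays, 16 of the 19 calls kept their side of the threshold, and the 3 that did not were Creb1 probe sets.

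**Figure D1:**
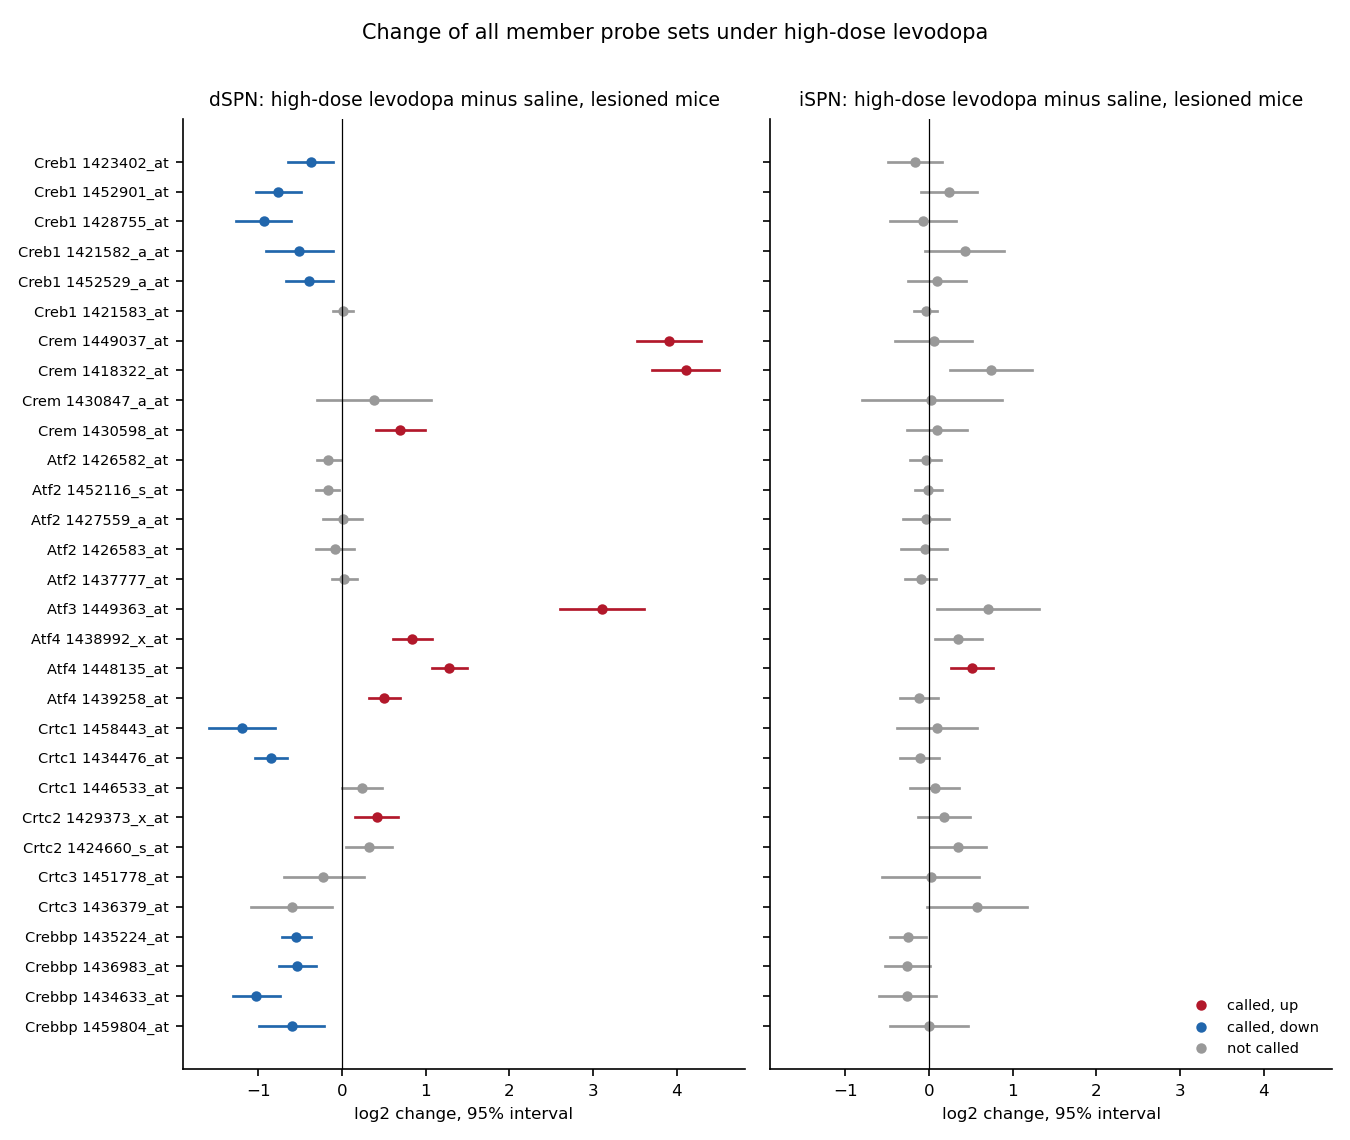
Log2 change (high dose minus saline, lesioned mice) of all 30 member probe sets with 95% intervals, in dSPN on the left and iSPN on the right. Red and blue points passed the adjusted threshold (up and down) and grey points did not. In dSPN the Crem (3.91 and 4.11) and Atf3 (3.11) points stand far to the right while Creb1, Crtc1 and Crebbp lie left of 0, and in iSPN the only called point is an Atf4 probe set at 0.52.

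Crem had the largest changes of the members. Its brightest probe set, 1449037_at, ran from 10.20 through a median of 10.40 to 10.77 in high-dose dSPN, against 5.20, 6.59 and 7.18 in saline-treated lesioned dSPN. The groups were more than 3 log2 units apart at their nearest arrays. The change was 3.91 ± 0.19 (SE), or 15-fold, with an adjusted p of 6.11e-29 by limma. A second probe set, 1418322_at, gave 9.80 to 10.19 in high-dose dSPN and 5.16 to 6.51 in saline-treated dSPN, a change of 4.11 ± 0.20, or 17.3-fold. Within the stretch that holds both groups, these changes were 3.75 and 3.92. A dim probe set, 1430598_at, rose by 0.70 on the log2 scale, and 1430847_a_at changed by 0.39, with an interval of -0.30 to 1.07, and was not called. Which Crem isoforms each probe set reports was not examined.

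Atf3, the stress-induced member, was near the bottom of the scale without levodopa. Its probe set 1449363_at had 4.81, 6.12 and 7.03 (lowest, median and highest) in high-dose dSPN and 2.51, 2.85 and 3.47 in saline-treated dSPN, so that no arrays overlapped. The change was 3.11 ± 0.25, or 8.65-fold (limma adjusted p = 1.88e-17), and 2.86 within the shared stretch. Without levodopa all dSPN values of Atf3 lay below 3.55, the 40th percentile of probe set means, so its folds start from signals that no detection call tells from background. Atf4 rose by less but with all 3 probe sets. Probe set 1448135_at had 9.55 to 10.31 (median 9.79) in high-dose dSPN and 8.17 to 8.93 (median 8.50) in saline-treated dSPN, a 2.44-fold difference (1.28 ± 0.10, adjusted p = 5.96e-18). The brightest Atf4 probe set, 1438992_x_at, changed by 0.84 ± 0.12 (1.80-fold) and the dimmest, 1439258_at, by 0.51 ± 0.10. These are amounts of ribosome-bound Atf4 mRNA, and ATF4 protein was not measured.

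**Figure D2:**
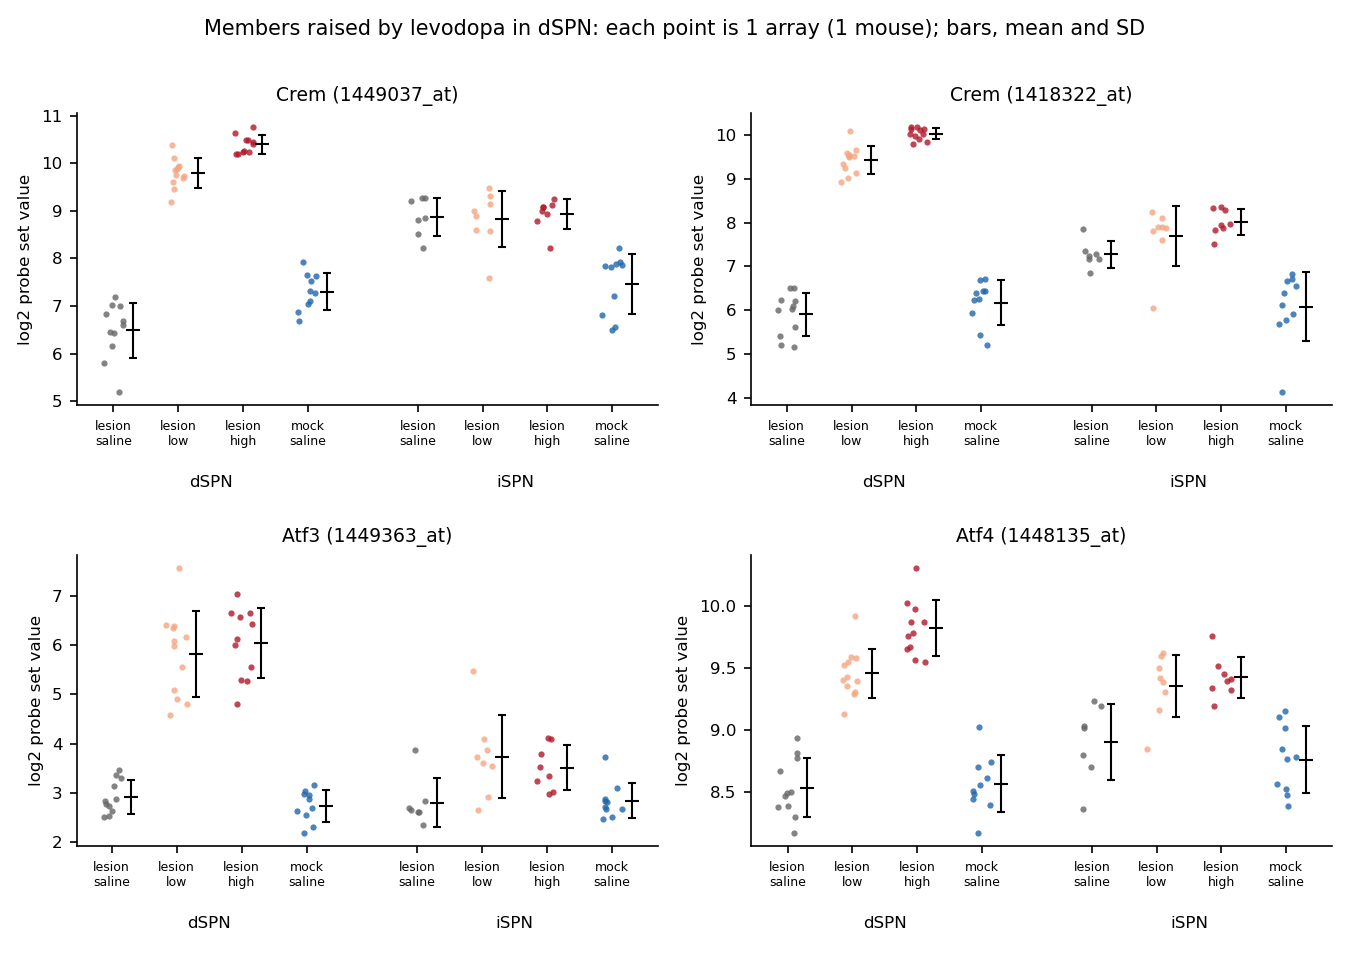
Log2 values of 2 Crem probe sets, Atf3 and Atf4 (1448135_at) on every array, by surgery and drug, for dSPN (left in each panel) and iSPN (right), with mean and SD beside each group. Crem, Atf3 and Atf4 are higher in both levodopa groups of dSPN than in either saline group of dSPN, while in iSPN Crem is already higher in lesioned mice on saline than in mock-lesioned mice.

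Creb1, the constitutive activator, fell with high-dose levodopa in 5 of 6 probe sets. The brightest, 1423402_at, had 8.69, 8.79 and 9.04 in high-dose dSPN and 8.75, 9.13 and 9.75 in saline-treated dSPN, so the groups overlapped in part. It changed by -0.37 ± 0.13, 1.29-fold lower (limma adjusted p = 0.0321). Probe set 1428755_at had the largest Creb1 change, -0.93 ± 0.16 or 1.91-fold lower, with 6.38 to 8.40 in high-dose dSPN and 7.49 to 8.68 in saline-treated dSPN. The others were 1452901_at (-0.76), 1421582_a_at (-0.51) and 1452529_a_at (-0.39), and the dim 1421583_at was not called. Within the shared stretch, 1423402_at changed by -0.28 (adjusted p = 0.0616), 1452529_a_at by -0.36 (0.0992) and 1421582_a_at by -0.39 (0.204), none of them called there.

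Crebbp, the acetyltransferase that CREB recruits, fell in all 4 of its probe sets. The brightest, 1435224_at, had 9.50, 9.66 and 9.83 in high-dose dSPN and 9.85, 10.21 and 10.66 in saline-treated dSPN, without overlap. That was a change of -0.55 ± 0.09, 1.46-fold lower (limma adjusted p = 6.02e-07). The largest change was -1.02 ± 0.14 for 1434633_at, 2.03-fold lower, and the remaining 2 changed by -0.53 and -0.60. Crtc1, the calcium- and cAMP-regulated coactivator that predominates in brain, had 7.78, 8.37 and 9.07 for 1458443_at in high-dose dSPN and 9.39, 9.52 and 9.96 in saline-treated dSPN. No arrays overlapped, and the change was -1.19 ± 0.20, 2.29-fold lower (adjusted p = 1.09e-06). Probe set 1434476_at gave the same picture without overlap (-0.85 ± 0.09), and the dim 1446533_at was not called.

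Markers of oligodendrocytes and, in part, of astrocytes were lower in the same arrays. In high-dose dSPN 10 of 11 oligodendrocyte markers were called lower (median change -1.3), and their mean over the list lay between 5.85 and 7.02, against 7.05 to 8.33 in saline-treated dSPN. For 10 astrocyte markers the means were 5.73 to 6.74 in high-dose and 6.55 to 7.26 in saline-treated dSPN, with 3 called lower. Of 9 microglia markers 1 was called higher, Cd68 at 1.69, and 0 lower (median -0.15). The glial markers used as a covariate are those of oligodendrocytes and astrocytes. With the mean of the glial markers as a covariate, 5 of the 19 calls were lost: Creb1 1423402_at (-0.19, adjusted p = 0.518), 1421582_a_at (-0.31, 0.454) and 1452529_a_at (-0.41, 0.106), Crebbp 1459804_at (-0.25, 0.558) and Crtc2 1429373_x_at (0.36, 0.115). The 2 bright Crem probe sets and Atf3 were at 3.74, 3.79 and 3.42 with the covariate, against 3.91, 4.11 and 3.11 without it, and Crtc1 1458443_at was at -1.03, against -1.19. The brightest Crebbp probe set, 1435224_at, was at -0.26 with the covariate (adjusted p = 0.0496), against -0.55 without it. Neuronal markers moved both ways in high-dose dSPN. Of 7 markers shared by all spiny projection neurons, 5 were called lower and 1 higher (median -0.21). Of 5 iSPN markers, 3 were called lower and 1 higher (median -0.72). Of 9 dSPN markers, 3 were called lower and 2 higher (median -0.32). The part of glial or other RNA in the falls of Creb1, Crebbp and Crtc1 was not tested further.

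**Figure D3:**
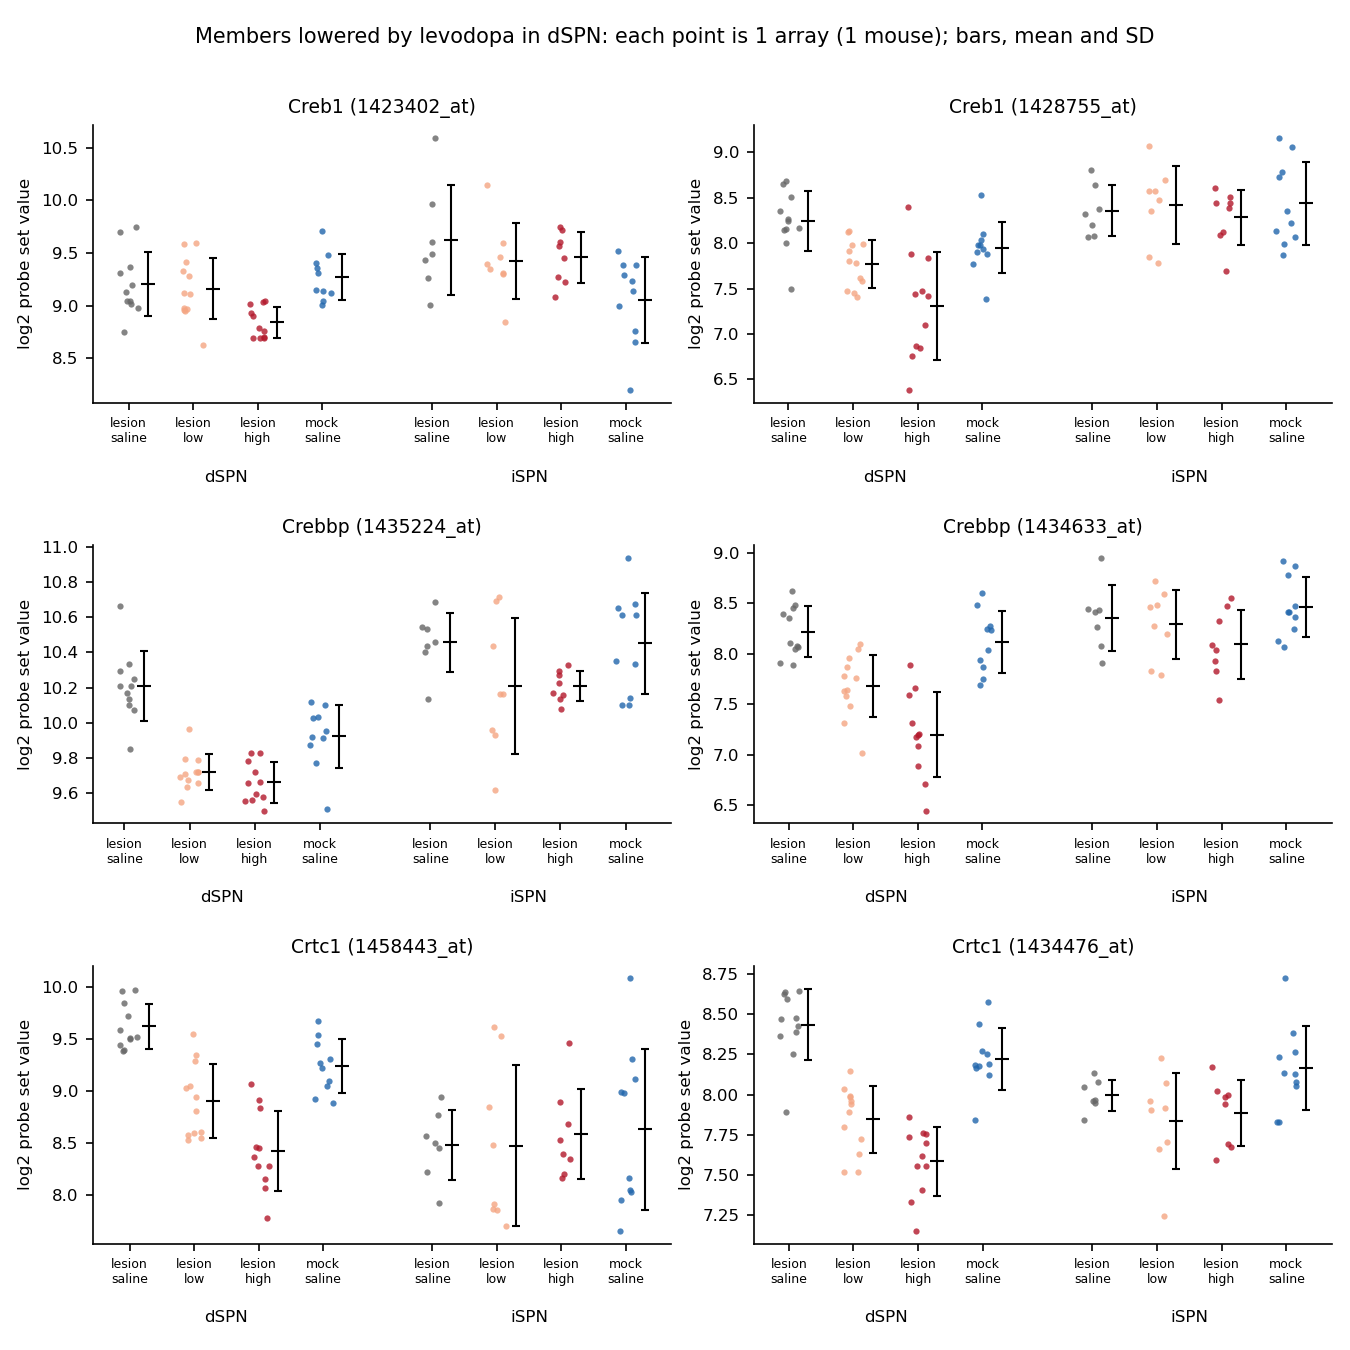
Log2 values of 2 probe sets each of Creb1, Crebbp and Crtc1 on every array, by surgery and drug, for dSPN (left in each panel) and iSPN (right), with mean and SD beside each group. In dSPN the high-dose arrays lie lowest in each panel on average, and for Crtc1 and Crebbp 1435224_at they do not overlap with lesioned saline arrays.

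Of the remaining members 1 probe set was called. Crtc2, a coactivator best known from liver, had 5.46 to 6.29 for 1429373_x_at in high-dose dSPN and 4.90 to 6.01 in saline-treated dSPN, a rise of 0.42 ± 0.13 (limma adjusted p = 0.00869), and its other probe set, at 0.32, was not called. Crtc3 was not called for either probe set: 1436379_at changed by -0.60 (adjusted p = 0.0551) and 1451778_at by -0.22, with an interval of -0.69 to 0.26. Atf2, the partner of Jun proteins, had 11.30 to 11.58 for its brightest probe set 1426582_at in high-dose dSPN and 11.46 to 11.72 in saline-treated dSPN. That difference, -0.16 with an interval of -0.30 to -0.01, was not called (adjusted p = 0.116), nor was any other Atf2 probe set.

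The low dose gave the same division of the family in dSPN. Here 8 member probe sets were called higher than saline, against 9.63% of all probe sets, and 8 lower, against 9.70%. The groups did not overlap for 4 of the member probe sets, again without a share of all probe sets beside that count. Crem 1449037_at had 9.18, 9.80 and 10.39 in low-dose dSPN and 5.20, 6.59 and 7.18 in saline-treated dSPN, a 9.90-fold difference (3.31 ± 0.18, limma adjusted p = 4.52e-25). Atf3 was 7.46-fold higher (2.90 ± 0.25) and Atf4 1448135_at was 1.89-fold higher (0.92 ± 0.10). All 4 Crebbp probe sets fell by 0.49 to 0.64 on the log2 scale, and Crtc1 changed by -0.71 and -0.59. Creb1 was lower for 1452901_at (-0.64) and 1428755_at (-0.47), whereas its brightest probe set changed by -0.05, with an interval of -0.31 to 0.22. In low-dose dSPN, too, 10 of 11 oligodendrocyte markers were called lower (median -1.32), and with the glial covariate 8 of the 16 calls were left, the 4 Crebbp probe sets being among those lost. Low-dose and saline arrays of dSPN share no stretch, so no value within a stretch exists. Drawing on other groups to link the stretches, a fit with the stretch as a block gave Crem 3.22 and 3.21 and Atf3 2.47, all called. It called 8 of the 30, a count without a share of all probe sets beside it.

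Between the doses few member probe sets passed the test in dSPN, and the number depended on the fit. High against low dose called 2 of 30, against 3.18% of all probe sets in either direction, while 14 of the 30 had an unadjusted p under 0.05. The count was 5 with the stretch as a random block, 5 with array weights and 6 on dSPN arrays alone. No shares of all probe sets stand beside these counts or the unadjusted one, so they do not single out the members. Of the 2, Atf4 1448135_at was 0.36 ± 0.10 higher (limma adjusted p = 0.0214) and Crebbp 1434633_at was lower by 0.48 on the log2 scale (adjusted p = 0.0277). In the stretch that holds 2 high-dose and 11 low-dose arrays these differences were 0.50 and -0.89, neither of them called. Crem 1449037_at was 0.60 higher at the high dose, with an interval of 0.23 to 0.97, and missed the threshold (adjusted p = 0.0522), and its values of 10.20 to 10.77 at high dose and 9.18 to 10.39 at low dose overlapped. Both levodopa comparisons share their saline arrays, so their changes are not independent of each other. They stand side by side here, and no correlation between them was computed.

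High-dose dSPN also differed from dSPN of mock-lesioned mice. Against that group 8 member probe sets were called higher (13.6% of all probe sets were) and 8 lower (12.9%), from 4 genes in each direction. With the stretch as a block 10 of the 30 were called in either direction, without a share of all probe sets beside that count. Crem 1449037_at was 8.53-fold higher (3.09 ± 0.19), with 10.20 to 10.77 in high-dose and 6.69 to 7.93 in mock-lesioned dSPN. Atf3 was 9.84-fold higher and Atf4 1448135_at 2.39-fold higher. Crtc1 1458443_at was at -0.82 ± 0.20, Crebbp 1434633_at at -0.91 ± 0.14 and Creb1 1428755_at at -0.64 ± 0.17. The other gene called lower was Atf2, whose 1452116_s_at had 10.06 to 10.40 in high-dose and 10.33 to 10.59 in mock-lesioned dSPN.

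Dopamine loss alone touched mainly Crem. In dSPN the lesion lowered 1 of 30 probe sets, against 0.692% of all, and raised 0 by limma, against 0.279%. Unadjusted p was under 0.05 for 5 of the 30 in either direction, a count without a share of all probe sets beside it. Crem 1449037_at had 5.20, 6.59 and 7.18 in lesioned dSPN on saline and 6.69, 7.29 and 7.93 in mock-lesioned dSPN, and the groups overlapped. The change was -0.82 ± 0.19, 1.76-fold lower (limma adjusted p = 0.0125). It was -0.81 in the stretch with 5 lesioned and 4 mock-lesioned arrays, -0.79 with the stretch as a block and -0.71 without the least correlated array of each group, and in none of these 3 was it called. Crem 1418322_at changed by -0.26, with an interval of -0.68 to 0.15.

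In iSPN the lesion went the other way. It raised 4 of 30 probe sets, against 1.44% of all, and called 0 lower, against 1.07%. Unadjusted p was under 0.05 for 5 of the 30 in either direction, again without a share of all probe sets beside that count. Crem 1449037_at had 8.23, 8.85 and 9.27 in lesioned iSPN on saline and 6.49, 7.83 and 8.22 in mock-lesioned iSPN, and the groups stood just apart. That was a 2.66-fold rise (1.41 ± 0.22, limma adjusted p = 6.25e-06), and 1418322_at rose 2.28-fold (1.19 ± 0.23), again without overlap. Creb1 1423402_at rose by 0.57 ± 0.16 (adjusted p = 0.0271) and Atf2 1427559_a_at by 0.46 ± 0.13 (adjusted p = 0.0376). In the same comparison 3 of 9 dSPN markers were called lower in lesioned iSPN, 8 of the 9 had an unadjusted p under 0.05, and their median change was -0.49. No share of all genes stands beside this unadjusted count. The part of these markers in the rises of Crem, Creb1 and Atf2 was not tested.

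Only 3 lesioned saline arrays of iSPN lie in a stretch with mock-lesioned arrays. In stretch 5 the lesioned array had 9.20 for Crem 1449037_at, above all 9 mock-lesioned arrays (6.49 to 8.22), and in stretch 6 the 2 lesioned arrays had 8.52 and 8.81, above the mock-lesioned array at 7.82. With the stretch as a block, Crem 1449037_at was at 1.38 (adjusted p = 0.0557) and 1418322_at at 0.96 (0.458), and none of the 4 was called. In stretch 5 the single lesioned array put Creb1 1423402_at at -0.09, opposite in sign to the whole comparison. With 1 array on a side, fits within stretches 5 and 6 could hardly reach the threshold.

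**Figure D4:**
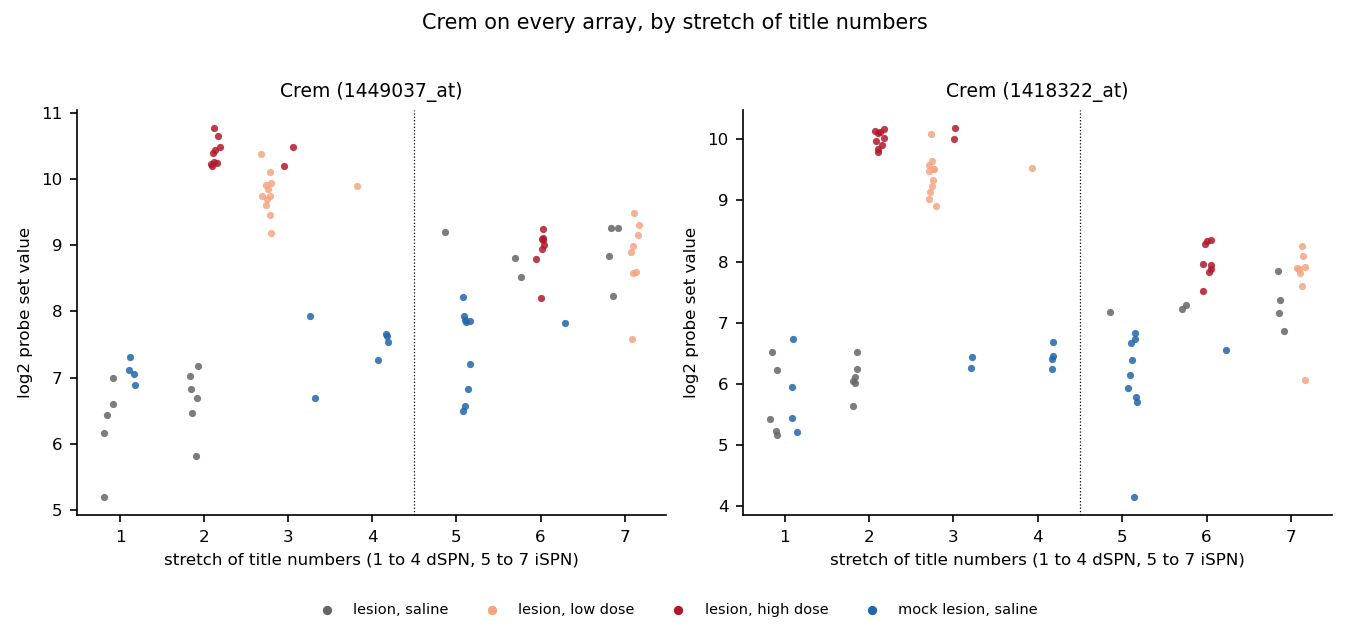
Log2 values of both bright Crem probe sets on every array against the stretch of title numbers (dSPN left of the dotted line, iSPN right of it), coloured by group. High-dose and lesioned saline arrays of dSPN in stretch 2 lie apart (10.21 to 10.77 and 5.81 to 7.18 for 1449037_at), and the single lesioned iSPN array of stretch 5, at 9.20, lies above the 9 mock-lesioned arrays.

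Few members were called with levodopa in iSPN, where few of all probe sets were called as well. With the high dose, 6 of the 30 had an unadjusted p under 0.05 in either direction, without a share of all probe sets beside that count. After adjustment the high dose called 1 of 30 probe sets higher than saline, against 2.76% of all probe sets, and 0 lower, against 1.63%. That was Atf4 1448135_at, with 9.20, 9.41 and 9.76 in high-dose iSPN and 8.37, 9.02 and 9.23 in saline-treated lesioned iSPN, a 1.43-fold rise (0.52 ± 0.12, limma adjusted p = 0.00479) that was 0.19 with the stretch as a block and 0.21 within stretch 6, not called in either. Crem 1449037_at stood at 8.21 to 9.25 in high-dose and 8.23 to 9.27 in saline-treated iSPN, a change of 0.06 with an interval of -0.40 to 0.52. Crem 1418322_at was at 0.74 (adjusted p = 0.0683) and Atf3 at 0.71 (0.204), neither called.

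With the low dose in iSPN, 5 of the 30 had an unadjusted p under 0.05 in either direction. No share of all probe sets stands beside this or the other unadjusted count below. After adjustment the low dose called 3 of 30 higher in iSPN, against 1.01% of all, and 0 lower, against 0.769%. These were both Crtc2 probe sets, 1429373_x_at (0.58 ± 0.16, adjusted p = 0.0263) and 1424660_s_at (0.63 ± 0.17, 0.0251), and Atf4 1448135_at (0.45 ± 0.12, 0.0332). For 1429373_x_at the arrays ran from 5.91 to 6.72 at low dose and from 5.57 to 5.97 in saline-treated lesioned iSPN, with a slight overlap. None of the 3 was called in stretch 7 alone, with array weights, on iSPN arrays alone or without the least correlated array of each group, and their changes under these 4 settings ran from 0.32 to 0.63. High against low dose in iSPN called 0 of 30 by limma, against 0.0687% of all probe sets, with 1 at an unadjusted p under 0.05, Crtc2 1429373_x_at at -0.40. High-dose iSPN against mock-lesioned iSPN, which joins the lesion and the drug, called 5 higher (5.36% of all probe sets) and 1 lower (3.96%). The 5 comprised 2 Crem probe sets at 1.47 and 1.93, 2 Atf4 probe sets at 0.50 and 0.66 and Atf2 1427559_a_at at 0.42, and the lower one was Crebbp 1436983_at at -0.41.

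Tests of the difference between the lines put Crem and Atf3 apart most clearly. For the high dose, 12 of 30 member probe sets had a response that differed between dSPN and iSPN, against 13.1% of all probe sets. The response of Crem exceeded that of iSPN by 3.85 ± 0.30 and 3.37 ± 0.32, that of Atf3 by 2.40 ± 0.39 and that of Atf4 by 0.77 and 0.63. Lower responses in dSPN were found for Creb1 (-0.86, -0.93 and -1.0), Crtc1 (-0.74 and -1.3), Crebbp 1434633_at (-0.76) and Crtc3 1436379_at (-1.18). For the low dose 3 of 30 differed, against 6.84%: both bright Crem probe sets (3.36 and 3.09) and Atf3 (1.96). For the lesion 3 of 30 differed, against 2.01%: Crem (-2.23 and -1.45) and Atf2 1427559_a_at (-0.61), each with the lower response in dSPN. With the stretch as a block, 8 of the 12 high-dose differences were called, without Crtc3 1436379_at, Crtc1 1458443_at and Creb1 1421582_a_at and 1428755_at. For the low dose Atf3 was not called with the block (1.74, adjusted p = 0.0725). For the lesion 1 of the 3 was called, Crem 1449037_at at -2.17 (0.00326), while Crem 1418322_at was at -1.09 (0.497) and Atf2 1427559_a_at at -0.63 (0.495).

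Without lesion or drug the lines differed in 6 member probe sets, against 11.8% of all probe sets. Atf2 1427559_a_at was higher in dSPN than in iSPN of mock-lesioned mice by 0.69 ± 0.12 and Crtc1 1458443_at by 0.61 ± 0.21. Lower in dSPN were Crtc3 1436379_at (-1.04 ± 0.26), Crebbp 1435224_at (-0.53 ± 0.09) and 1436983_at (-0.33 ± 0.12), and Creb1 1428755_at (-0.49 ± 0.17). In these mice 7 of 11 oligodendrocyte markers were called lower in dSPN as well (median -0.86), and with the glial covariate 3 of the 6 calls were kept, those of Atf2, Crtc1 and Crebbp 1435224_at. Crem did not pass the test there (-0.16 for 1449037_at, with an interval of -0.55 to 0.24), yet after the lesion its 1449037_at values of 5.20 to 7.18 in dSPN lay wholly below the 8.23 to 9.27 of iSPN (-2.39 ± 0.21, limma adjusted p = 2.11e-14).

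Ordered by their medians for Crem 1449037_at, the 8 groups began with lesioned dSPN on saline (6.59), mock-lesioned dSPN (7.29) and mock-lesioned iSPN (7.83). Lesioned iSPN on saline (8.85), low dose (8.95) and high dose (9.04) followed, and low-dose (9.80) and high-dose (10.40) dSPN stood at the top. Of the neighbours tested, lesioned and mock-lesioned dSPN differed past the threshold, and so did lesioned iSPN on saline and mock-lesioned iSPN. No difference passed it between the 2 mock-lesioned groups, between neighbouring lesioned iSPN groups or between the 2 doses in dSPN, and high-dose iSPN was not tested against low-dose dSPN.

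The genes most like each member over the 77 arrays were taken by Pearson correlation among brighter genes, as a description of arrays that share groups, lines and stretches. Crem 1449037_at was most like Fosl2 (r = 0.937), an AP-1 subunit, Ippk (0.921), an inositol phosphate kinase, and Nr4a3 (0.919), an orphan nuclear receptor. Atf3 was closest to Homer1 (0.908), a synaptic scaffold gene, Plk3 (0.904) and Ina (0.903). Atf4 was closest to Eif4a1 (0.826), an initiation factor, Smim14 (0.818) and Egr3 (0.809), and Crebbp to Oip5os1 (0.867), Zfhx3 (0.864) and Kmt2e (0.864), a chromatin regulator. For Creb1, Atf2, Crtc1, Crtc2 and Crtc3 the highest correlations were 0.584, 0.668, 0.629, 0.531 and 0.660.

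Genes around the family were then counted from 6 lists, with the brightest probe set of each gene, of which 16.1% were called up and 17.8% down among 18194 genes at the high dose in dSPN. Known CREB target genes rose nearly throughout: 29 of 33 measured were called higher, none of these 33 was called lower, and the median change was 1.76, against 0.019 for all genes. The lists were chosen with earlier results of these data known, so these counts describe the listed genes and are no independent test. Nr4a2 changed by 5.98, Nr4a3 by 5.89, the prostaglandin synthase Ptgs2 by 5.59 and the activin subunit Inhba by 4.49, while Sst, Bdnf, Pck1 and Crh were not called. Many of these genes respond to other activity-driven factors as well, and Sik1, Nfil3, Atf5 and Ppp1r15a each stand in 2 of the 6 lists. Among 19 other CREB and ATF bZIP genes, 3 were called higher and 7 lower, with the membrane-bound factors Creb3l1 at 3.63 and Creb3l2 at 2.03, Nfil3 at 1.49 and Creb5 at -1.45.

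Enzymes upstream of CREB and the Crtc proteins moved both ways, with 11 of 32 called higher and 13 lower. The kinases that hold Crtc proteins in the cytoplasm led, Sik1 at 2.94 and Sik2 at 2.00, followed by the RSK kinase gene Rps6ka6 and the protein kinase A inhibitor Pkib, both at 1.16. Of 19 other coactivators and acetyltransferases 1 was called higher, Cited2 at 0.70, and 6 lower, among them Kat2a at -0.72, Ncoa1 at -0.68 and Ncoa2 at -0.58. ATF4 target and amino acid stress genes gave 9 of 31 higher and 5 lower, with a median of -0.01. Stc2 changed by 2.40, the transfer RNA synthetase Eprs by 1.3 and the stress factor Ddit3 by 0.99, but the serine synthesis enzyme Phgdh by -1.34. Of 6 genes that set eIF2 alpha phosphorylation, 2 were called higher, the phosphatase subunit Ppp1r15b at 1.06 and the kinase Eif2ak3 (PERK) at 0.29.

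**Figure D5:**
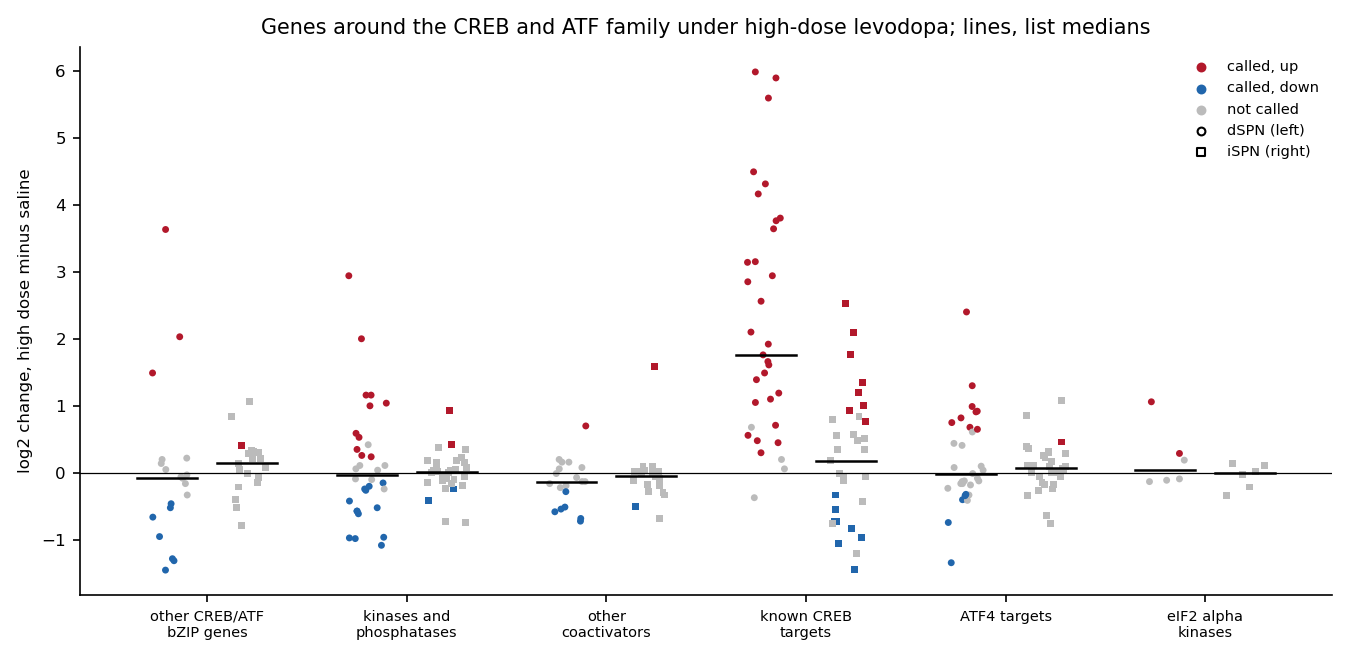
Log2 change (high dose minus saline, lesioned mice) of the brightest probe set of each gene in 6 lists, with dSPN as circles on the left and iSPN as squares on the right of each pair, and black lines at list medians. Known CREB targets centre on 1.76 in dSPN and on 0.18 in iSPN, whereas the medians of the other lists lie between -0.13 and 0.14. The lists were chosen with earlier results of these data known.

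At the low dose in dSPN, where 10.9% of all genes were called up and 12.7% down, 27 of 33 known targets were called higher (median 1.49), led by Nr4a3 at 5.55 and Nr4a2 at 4.43. Sik1 changed by 2.31 and Sik2 by 1.79. In iSPN the high dose called 8 of 33 targets higher and 8 lower (all genes, 3.64% up and 2.10% down), with Nr4a2 at 2.52, the opioid peptide gene Pdyn at 2.09, Ptgs2 at 1.76 and Nr4a1 at -1.44. The low dose called 6 higher and 4 lower there (all genes, 1.40% and 0.912%), and Sik1 changed by 0.84 at the low dose and by 0.93 at the high dose.

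After the lesion alone, known targets divided by line. In dSPN 1 of 33 was called higher and 9 lower (all genes, 0.379% up and 1.02% down), with Vgf at -2.14 and Nr4a3 at -1.61. In iSPN 10 were called higher and 3 lower (all genes, 1.86% and 1.58%), with the peptide gene Cartpt at 3.89 and Nr4a1 at 2.83. The lesion response itself differed between the lines for 13 of the 33, with 12 lower and 1 higher in dSPN than in iSPN, against 2.01% of all probe sets in either direction. The sign of Sik3, another Crtc kinase, was also opposite, at -0.36 in dSPN and 0.48 in iSPN, both called. The listed genes were followed in the main fit only, not with the stretch of title numbers as a block. In iSPN, stretch 5 holds 9 mock-lesioned arrays and 1 lesioned saline array. Lesion and stretch are therefore hard to tell apart for these genes.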

How the data were processed

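Expression was measured on Affymetrix whole-genome mouse arrays, 1 array per mouse. The deposited log2 values of 45101 probe sets were made by the authors with RMA and affy, per the submitters' processing notes, with no version given; background correction and normalization across arrays are part of that method, so all groups were scaled together. Raw scans and present or absent calls played no part, so no probe set was marked as below background. Gene names came from the platform annotation, in which 34958 probe sets have 1 symbol, 932 several and 9211 none, and the 30 member probe sets kept current RefSeq symbols. Groups came from the sample source labels.

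All 8 groups were fitted in 1 limma model (version 3.58.1 in R 4.3.3, lmFit and eBayes, 69 residual and 2.8 prior degrees of freedom) without a filter, and p-values were adjusted by Benjamini-Hochberg over all probe sets within each comparison. Gene lists used the single-symbol probe set with the highest mean over 77 arrays for each gene. Every member was named. Values of the brightest and of every other called probe set were given for the high dose against saline in dSPN. In some other comparisons only part of the called probe sets were given. Of each list up to 4 called genes with the largest changes were named (2 for the lesion). The members and lists were chosen with earlier results of these data known. Alternatives were a filter at the 40th percentile of probe set means (3.55), 1 probe set a gene, the stretch of title numbers as a fixed or random block and fits within a stretch, each line alone, array weights, a trended robust variance prior, further normalization, the mean of glial markers as a covariate, and leaving out the least correlated array of each group. The fit was tested on simulated data. Shares of all probe sets were given for the main fit at the adjusted threshold only. The number of arrays limits precision. The p-values set a group difference against the spread between mice, estimated jointly over the 8 groups of both lines.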

Additional observations from a re-analysis of the deposited data

Results flagged for a closer look

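Single arrays stood apart in 9 of 120 group tests over 24 of the 30 member probe sets, and chance alone flags about 1 in 20 groups. Groups of 4 to 10 arrays were tested, which are the 4 iSPN groups and mock-lesioned dSPN but not the lesioned dSPN groups. All 9 flags fell on iSPN arrays, some on the same array. Replicate 3 of low-dose iSPN was flagged for Crem 1418322_at and Creb1 1452901_at. Replicate 4 of mock-lesioned iSPN was flagged for Creb1 1421582_a_at and Atf3. Crem 1430847_a_at is not among the 9, yet it reached 7.89 in high-dose iSPN against a median of 3.76. In lesioned iSPN on saline it reached 7.06 against a median of 3.90. Crem 1418322_at was lowest at 6.06 in low-dose iSPN, where the next array had 7.6, and at 4.15 in mock-lesioned iSPN, where the next had 5.69. Crem 1449037_at was 8.21 on a high-dose iSPN array, below the next at 8.79. Creb1 1421582_a_at was 6.32 on a mock-lesioned array (next 7.42), and Creb1 1452901_at was 9.44 on a low-dose array, above the next at 8.89. Crtc2 1424660_s_at was 4.92 on an array of lesioned iSPN on saline (next 5.34), and Atf2 1426582_at was 11.02 on a high-dose array (next 11.57). Atf3 was highest at 3.87 in lesioned iSPN on saline (next 2.84) and at 3.74 in mock-lesioned iSPN (next 3.11).

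Responses that differed between dSPN and iSPN by the test of the difference make up the rest, given as the dSPN change minus the iSPN change. For the high dose these were 3.85 and 3.37 for Crem, 2.40 for Atf3, 0.77 and 0.63 for Atf4, -0.93, -0.86 and -1.0 for Creb1, -0.76 for Crebbp, -0.74 and -1.3 for Crtc1 and -1.18 for Crtc3. For the low dose they were 3.36 and 3.09 for Crem and 1.96 for Atf3. For the lesion they were -2.23 and -1.45 for Crem and -0.61 for Atf2. Oligodendrocyte marker levels also moved with levodopa in dSPN, and their part in the smaller of these differences was not tested beyond the covariate.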

How the results depend on the processing

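High dose against mock and lesioned dSPN against lesioned iSPN were not followed call by call. Of the 70 calls in the other comparisons, a random block for the stretch of title numbers kept 70, a trended robust prior 69, a second quantile normalization 67, centring on the array median 66, array weights 62, leaving out the least correlated array of each group 59 and the glial covariate 51. The filter on low values kept 68 of 68, 1 probe set a gene 25 of 25, dSPN arrays alone 38 of 38, iSPN arrays alone 3 of 8 and the stretch as a fixed block 38 of 64. Stretch values added after seeing the data are those for high against low dose in dSPN and for the lesion in iSPN. The 1 reversal was Creb1 1423402_at for the lesion in iSPN, at -0.09 within stretch 5, from 1 lesioned array.

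Counts of called members moved as follows, and apart from having fewer probe sets or arrays to test, the cause was not tested. Shares of all probe sets called under these settings are not given beside them. With 1 probe set a gene, high dose in dSPN gave 7 against 19, low dose in dSPN 6 against 16, high dose against mock in dSPN 7 against 16, high against low dose in dSPN 1 against 2, the lesion in iSPN 2 against 4, low dose in iSPN 1 against 3, high dose in iSPN 0 against 1, the line difference in mock-lesioned mice 3 against 6, and the differences of response 4 against 12 (high dose) and 1 against 3 (lesion). With the stretch as a fixed block, low dose in dSPN gave 8, high dose against mock in dSPN 10, high against low dose in dSPN 1, low dose in iSPN 1, the difference of lesion response 1, and the lesion in dSPN, the lesion in iSPN and high dose in iSPN 0 each. Within single stretches, the lesion in dSPN (stretch 1), high against low dose in dSPN (stretch 3), the lesion in iSPN (stretches 5 and 6), high dose in iSPN (stretch 6) and low dose in iSPN (stretch 7) gave 0 each, but for the lesion in iSPN each of these fits had 1 array on a side, so its zeros say nothing about stability.

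The glial covariate gave 8 for low dose in dSPN and 3 for the line difference. Array weights gave 5 for high against low dose in dSPN, 2 for each of the lesion in dSPN, the lesion in iSPN and high dose in iSPN, 0 for low dose in iSPN and 5 for the difference of low-dose response. Without the least correlated arrays the counts were 3 for the line difference, 0 for the lesion in dSPN, 2 for the lesion in iSPN, 0 for low dose in iSPN and 5 for the difference of low-dose response. The random block gave 5 for high against low dose in dSPN and 6 for the difference of low-dose response, and the filter gave 2 for high dose in iSPN and 6 for that difference. Each line alone gave 6 for high against low dose and 2 for the lesion in dSPN, and 2 for the lesion and 0 for low dose in iSPN. Without probe sets that may match several transcripts, low dose in iSPN gave 1.

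No paired analysis was possible because each array is a different mouse and the replicate numbers only follow the order of the samples. Low signals limit Atf3 without levodopa and the 3 dim member probe sets, which lie near the bottom of the scale.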
